A study of Homo sapiens with 2 samples.

Results

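NeuroD1 binding was examined at 36 genes of clathrin-mediated endocytosis, among them EPS15, in IMR-32 cells. A gene was counted as having a peak when a deposited NeuroD1 peak overlapped its RefSeq body or lay within 3 kb of either end. The members were named with earlier results of these peaks known, and EPS15 was on the list because its peak ranked near the top, so its rank and the members' count of peaks are descriptions and were not tested. The 36 members were drawn from 20037 protein-coding genes on chromosomes. IMR-32 is an established human neuroblastoma line, MYCN-amplified according to the paper, and used here with a genotype given as wild-type. There was 1 NeuroD1 ChIP library and 1 input library, with no replicate and no other condition, and the values below come from the peaks called in the former. According to its label the antibody was raised against NeuroD1, while the supplementary ChIP methods describe one against H3K27Ac. The paper's antibody list includes the NeuroD1 antibody of the label. The paper also reports NeuroD1 motifs enriched at the ChIP sites, and profiled H3K27Ac by a separate assay, CUT&Tag. RNA was not measured in these libraries, and copy number along the IMR-32 chromosomes was not analysed here.

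In clathrin-mediated endocytosis, scaffold proteins and the AP2 adaptor complex gather at the plasma membrane, select cargo and recruit clathrin, whose chains assemble into a lattice over the forming pit. Membrane-bending proteins and dynamin then shape and cut the neck of the pit, after which a kinase-regulated, chaperone-driven step strips the coat so that its parts can be used again. In neurons the same machinery retrieves synaptic vesicle membrane after release. NeuroD1 is a basic helix-loop-helix factor of neuronal and endocrine differentiation. Together with an E-protein partner it binds E-boxes, the motif CANNTG, with CAGATG and CAGCTG as its usual forms.

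The list held 6183 peaks with a median width of 220 bp. The fold enrichment is the ratio of ChIP pileup to local background at the summit, each with 1 added. Its median over all peaks was 6.79, with quartiles of 5.79 and 8.68 and a range of 1.58 to 70.03. The ChIP reads at a summit, worked out from the deposited fold enrichment and p-value, had a median of 17 and ran from 8 to 272. The total number of reads in the library is unknown. All intervals given for reads and fold enrichment are exact 95% Poisson intervals with the background held fixed. They cover counting error only and say nothing of the spread between cultures.

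The promoters printed here were chosen because they are the windows with the strongest summits inside them. Each runs from 250 bases before to 50 bases after a RefSeq start in GRCh38.p14, is written 5′ to 3′ on the strand of the gene, and has every CANNTG in capitals. The EPS15 window is chr1:51519217-51519516 on the minus strand, the FCHO1 window chr19:17747494-17747793 on the plus strand, and the DNAJC6 window chr1:65264499-65264798 on the plus strand. The NUMB window is chr14:73458497-73458796, the PICALM window chr11:86069035-86069334 and the EHD1 window chr11:64878572-64878871, all on the minus strand. The PICALM and EHD1 windows belong to a second start inside the gene body.
EPS15: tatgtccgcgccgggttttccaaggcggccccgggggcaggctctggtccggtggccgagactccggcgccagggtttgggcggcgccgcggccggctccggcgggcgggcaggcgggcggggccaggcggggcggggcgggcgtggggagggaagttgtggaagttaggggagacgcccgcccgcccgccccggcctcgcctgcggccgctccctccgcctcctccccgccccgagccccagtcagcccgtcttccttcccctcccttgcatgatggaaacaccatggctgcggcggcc
FCHO1: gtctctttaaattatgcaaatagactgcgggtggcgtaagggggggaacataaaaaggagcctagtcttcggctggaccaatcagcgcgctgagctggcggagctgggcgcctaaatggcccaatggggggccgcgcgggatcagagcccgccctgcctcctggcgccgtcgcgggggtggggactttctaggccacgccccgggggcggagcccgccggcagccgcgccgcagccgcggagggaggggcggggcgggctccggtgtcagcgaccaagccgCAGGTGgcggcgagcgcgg
DNAJC6: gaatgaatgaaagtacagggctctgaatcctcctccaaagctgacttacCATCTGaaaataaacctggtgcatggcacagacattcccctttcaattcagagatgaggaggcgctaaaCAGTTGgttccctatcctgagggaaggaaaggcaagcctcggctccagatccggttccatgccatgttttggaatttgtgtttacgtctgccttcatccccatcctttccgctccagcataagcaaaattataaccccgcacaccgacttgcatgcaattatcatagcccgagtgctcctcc
NUMB: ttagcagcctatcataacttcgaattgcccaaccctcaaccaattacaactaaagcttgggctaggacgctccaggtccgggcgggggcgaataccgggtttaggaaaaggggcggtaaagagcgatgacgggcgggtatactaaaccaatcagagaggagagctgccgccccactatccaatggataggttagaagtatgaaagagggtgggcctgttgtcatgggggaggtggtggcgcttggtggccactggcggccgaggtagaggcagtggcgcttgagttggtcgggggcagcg
PICALM: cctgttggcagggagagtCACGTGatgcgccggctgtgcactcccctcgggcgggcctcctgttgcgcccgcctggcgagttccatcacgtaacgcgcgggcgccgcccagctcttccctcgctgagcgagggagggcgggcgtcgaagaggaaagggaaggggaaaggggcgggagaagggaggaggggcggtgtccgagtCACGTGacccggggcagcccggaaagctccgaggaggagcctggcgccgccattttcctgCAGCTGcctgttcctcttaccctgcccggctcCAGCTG
EHD1: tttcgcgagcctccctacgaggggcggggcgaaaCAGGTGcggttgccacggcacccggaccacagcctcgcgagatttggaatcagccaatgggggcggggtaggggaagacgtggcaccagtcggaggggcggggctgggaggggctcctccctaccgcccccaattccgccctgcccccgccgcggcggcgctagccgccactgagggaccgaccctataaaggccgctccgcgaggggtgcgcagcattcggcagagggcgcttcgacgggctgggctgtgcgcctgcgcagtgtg

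The EPS15 window holds no CANNTG. Of its 300 bases, 267 lay under the EPS15 peak, and the summit fell at base 38. That peak is 512 bp wide and runs on upstream of the window, where the sequence was not read. The window is rich in G and C, at 77.3%, and holds 37 CpG. The NUMB window likewise holds none, with its summit at base 181. In FCHO1 a CAGGTG begins at base 282, beyond the end of the peak and 212 bases from the summit. DNAJC6 carries CATCTG, which reads CAGATG on the other strand, from base 50, and CAGTTG from base 119, with its summit at base 217. The CAGTTG lay under the peak and the CATCTG outside it. The GC content of the DNAJC6 window, 48.7%, was the lowest among the member windows that hold a summit. The PICALM window lay wholly under its peak and has 4 matches, CACGTG at bases 19 and 203 and CAGCTG at bases 263 and 295. The PICALM summit, at base 43, was 19 bases from the nearest match. In EHD1 the single CAGGTG began at base 35 and the summit lay 85 bases away.

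Of the 36 members, 17 had a peak, which is 47.2%, beside 21.4% of all protein-coding genes. They held 28 peaks in all: 9 members had 1 peak, 6 had 2, and DNM3 and DNAJC6 had 3 and 4. The fold enrichment of the 28 peaks had a median of 7.24 and ran from 4.58 to 54.8. Of these peaks, 20 were above the median of all peaks, 6 above the upper quartile, and EPS15 alone was above the 95th percentile of 13.8. Most of the members' peaks were thus of middling height, and that of EPS15 stood apart. With peaks of a −log10 q of at least 5, 17 members had a peak beside 17.2% of all protein-coding genes, and requiring at least 5 in fold enrichment also left 17, beside 19.7%.

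**Figure D1:**
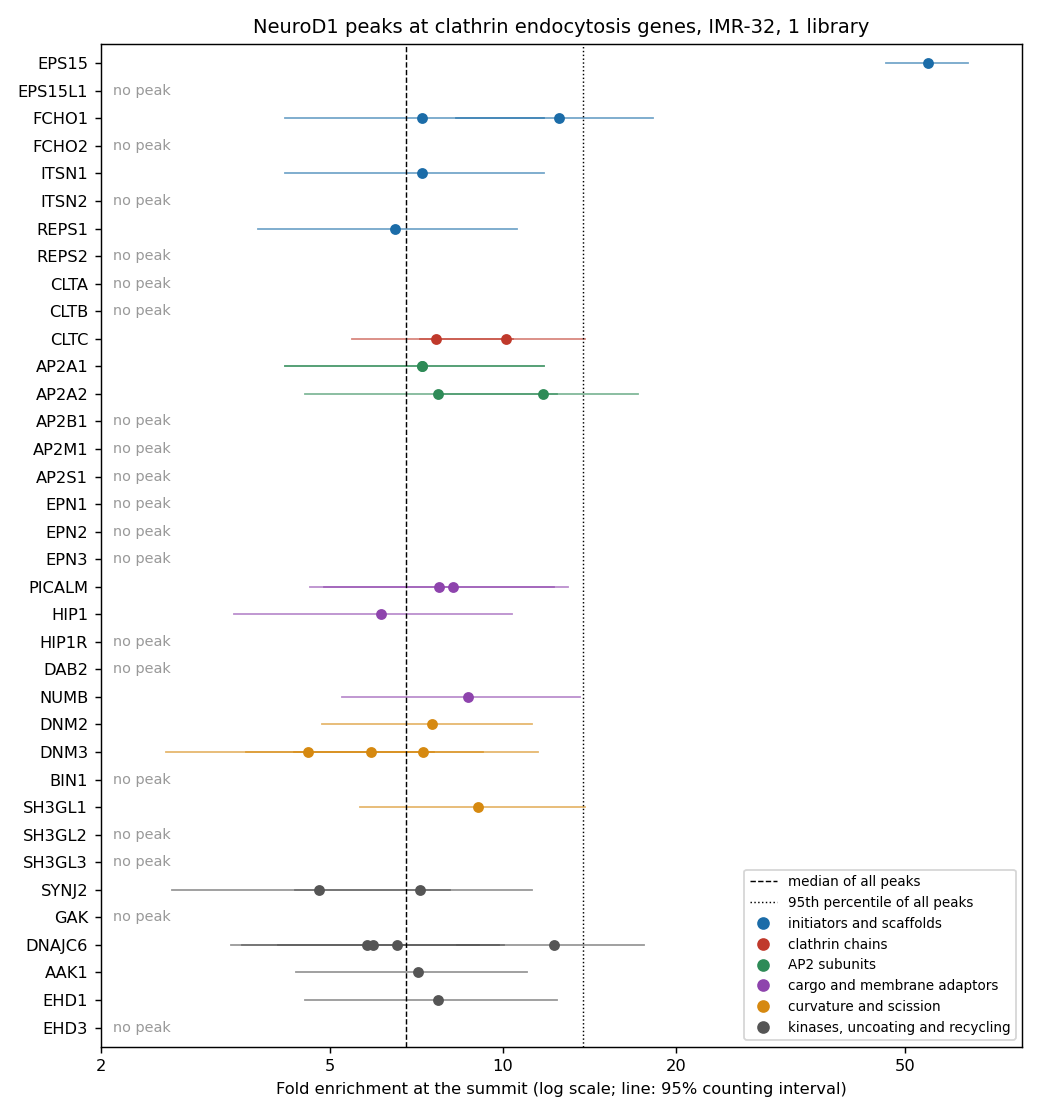
Fold enrichment at each of the 28 member peaks (log axis), with members grouped by role and bars giving the 95% Poisson interval of the ChIP reads; members without a peak are marked as such, and the dashed line is the median of all peaks, 6.79. EPS15 stands at 54.8, and the next highest, FCHO1, at 12.5; the AP2A1 points coincide at 7.23.

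Among the scaffolds that start a pit, 4 of 8 had a peak. The roles hold only 3 to 8 genes each. Their counts are to be read beside the 21.4% of all protein-coding genes, and differences between roles were not tested. EPS15, an EH-domain scaffold that binds AP2 at the rim of the early pit, had a peak at chr1:51519250-51519761. Its summit was 213 bp upstream of the start, with 148 reads (125 to 174) over a background of 1.66. The fold enrichment was 54.8 (46.4 to 64.3) and the −log10 q was 215. This peak ranked 3 of 6183 by fold enrichment and was 512 bp wide, the widest at any member. OSBPL9 and EPS15-AS1 also lie within 3 kb of it, so that the peak cannot be given to EPS15 alone.

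FCHO1, an F-BAR protein that bends membrane and activates AP2 as pits begin, had the next highest peak. It lay at chr19:17747433-17747758, 181 bp upstream of the start, with 25 reads (16.2 to 36.9), a background of 1.035 and a fold enrichment of 12.5 (8.28 to 18.3). FCHO1-AS1 lies near this peak, where near means that a gene body is within 3 kb. A second FCHO1 peak, at chr19:17791441-17791851, had 14 reads and a fold enrichment of 7.23. This second peak lay 2880 bp beyond the end of the gene, just inside the 3 kb limit, and near B3GNT3. ITSN1, a scaffold that joins the coat to dynamin and actin regulators, had a peak 226 bp upstream of its start with a fold enrichment of 7.23, near CRYZL1. REPS1, an EH-domain partner of a Ral effector, had one 172 bp upstream at 6.48. EPS15L1, FCHO2, ITSN2 and REPS2, the close relatives of these 4 genes, had none.

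Of the clathrin chains, CLTC, which encodes the heavy chain, had a pair of peaks, and the light chain genes CLTA and CLTB had none. The upstream CLTC peak, at chr17:59619177-59619491, had 36 reads (25.2 to 49.8) over a background of 2.58 and a fold enrichment of 10.1 (7.17 to 13.9), with its summit 579 bp before the start. The other, at chr17:59619704-59620000, had 38 reads (26.9 to 52.2), a higher background of 4 and a fold enrichment of 7.65 (5.47 to 10.4), with its summit 53 bp before the start. The reads at the CLTC summits were thus alike, and the backgrounds differed. The peaks were 212 bases apart.

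Of the 5 AP2 genes, both that encode the large alpha subunit had peaks. AP2A2 had a peak at chr11:924732-924958 with 25 reads over a background of 1.17, a fold enrichment of 11.8 (7.78 to 17.2) and a summit 1010 bp upstream of the start. A second, at chr11:925768-926024, had 15 reads, a fold enrichment of 7.71 and a summit 28 bp downstream of the start. AP2A1 had peaks at chr19:49766504-49766683 and chr19:49766755-49767022, 71 bases apart, with 14 reads and a fold enrichment of 7.23 (4.18 to 11.8) at each. The AP2A1 summits lay 449 and 102 bp upstream, and the small RNA pseudogene RNU6-841P lies nearby. The genes of the beta, mu and sigma subunits, AP2B1, AP2M1 and AP2S1, had no peak within 3 kb.

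Of the 8 cargo and membrane adaptors, 3 had a peak. NUMB, an endocytic adaptor known for holding back Notch signalling, had a peak at chr14:73458497-73458753 with 17 reads (9.90 to 27.2), a background of 1.035 and a fold enrichment of 8.68 (5.26 to 13.6), 70 bp upstream of the start and near LOC101928143. PICALM, which binds phosphoinositides and sorts vesicle SNAREs, had a peak at chr11:86069024-86069479 with 16 reads (9.15 to 26.0), a background of 1.035 and a fold enrichment of 8.20 (4.90 to 13.0). Its summit was 568 bp inside the gene from the outermost start and 208 bp upstream of the second start, and LOC124902731 lies nearby. A second PICALM peak, at chr11:85962024-85962199, was 107.7 kb from the start, near the far end of the gene, with 16 reads and a fold enrichment of 7.75. HIP1, which links clathrin to actin, had a peak of 6.13 with 12 reads, 226 bp upstream. The epsin genes EPN1, EPN2 and EPN3, HIP1R and DAB2 had none.

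Curvature and scission genes had peaks at 3 of 6. SH3GL1, an endophilin gene, had a peak at chr19:4402421-4402637 with 19 reads (11.4 to 29.7), a background of 1.17 and a fold enrichment of 9.05 (5.63 to 13.9). Its summit was 2000 bp upstream of the nearest start, the peak itself lay 1874 bp from the gene body, and CHAF1A lies nearby. DNM2, the dynamin of most tissues, had a peak at chr19:10717563-10718007 with 22 reads over a background of 2, a fold enrichment of 7.52 (4.84 to 11.2) and a summit 233 bp upstream, near MIR638. DNM3, a dynamin of neurons and testis and the longest gene on the list at 577 kb, had 3 peaks and none near its start. Their fold enrichments were 7.25 at chr1:172009432-172009577, 4.58 at chr1:172144845-172145045 and 5.89 at chr1:172220455-172220685, at 168, 303.4 and 379.1 kb into the gene. The middle DNM3 peak had 13 reads, the lowest fold enrichment of any member peak, and lies near DNM3OS and MIR199A2. BIN1, SH3GL2 and SH3GL3 had no peak.

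Kinase, uncoating and recycling genes had peaks at 4 of 6. DNAJC6, the neuronal auxilin that recruits the chaperone for uncoating, had 4 peaks. The highest, at chr1:65264587-65264845, had 28 reads (18.6 to 40.5), a background of 1.31, a fold enrichment of 12.3 (8.31 to 17.6) and a summit 34 bp upstream of the start. The others had fold enrichments of 5.94 at chr1:65265722-65265970, 5.80 at chr1:65310258-65310403 and 6.54 at chr1:65317946-65318118. The second lay 1022 bp inside the gene and the third 792 bp past a later start, near DNAJC6-AS1 and LOC112268227. GAK, the auxilin of most tissues, had no peak. SYNJ2, a phosphoinositide phosphatase, had peaks of 7.18 at chr6:157995536-157995710 and 4.79 at chr6:158009366-158009545, with 12 reads at the latter and both well inside the gene at 14.3 and 28.1 kb. AAK1, the kinase that phosphorylates AP2, had a peak of 7.11 with 18 reads, its summit 1 bp from the start and near ANXA4. EHD1, an ATPase of endocytic recycling, had a peak of 7.71 with 15 reads, 126 bp upstream of its second start and near MIR10392 and RPS16P6, and its relative EHD3 had none.

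Most member peaks lay at starts. Of 35 members with a start in the promoter table, 14 had a summit within 1 kb of one, which is 40%, beside 15.8% of all protein-coding genes with a start and a mean of 18.2% among genes of like length. EPN3 was not in that table. Among genes that had a peak at all, 14 of 17 members had such a summit (82.4%), beside 71.1% of 3517 protein-coding genes. Counted by peak, 17 of 28 summits were within 1 kb (60.7%), and 14 were within 0.25 kb. Over 5995 peaks, 39.6% were within 1 kb of a coding start. Those were not limited to peaks near genes, whereas member peaks were taken within 3 kb of one, so the shares are not alike. Of those 17 summits, 14 were upstream of the nearest start and 3 downstream. Among the 14, those of PICALM and EHD1 lay 568 and 946 bp inside the gene body from its outermost start. The median distance was 181 bp. The distances and the split by side were not set beside those of all protein-coding genes. Member peaks near a start had a median fold enrichment of 7.65 and those farther away 7.18, and the difference was not tested. DNM3 and SYNJ2 had peaks only far inside the gene, and SH3GL1 only upstream.

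**Figure D2:**
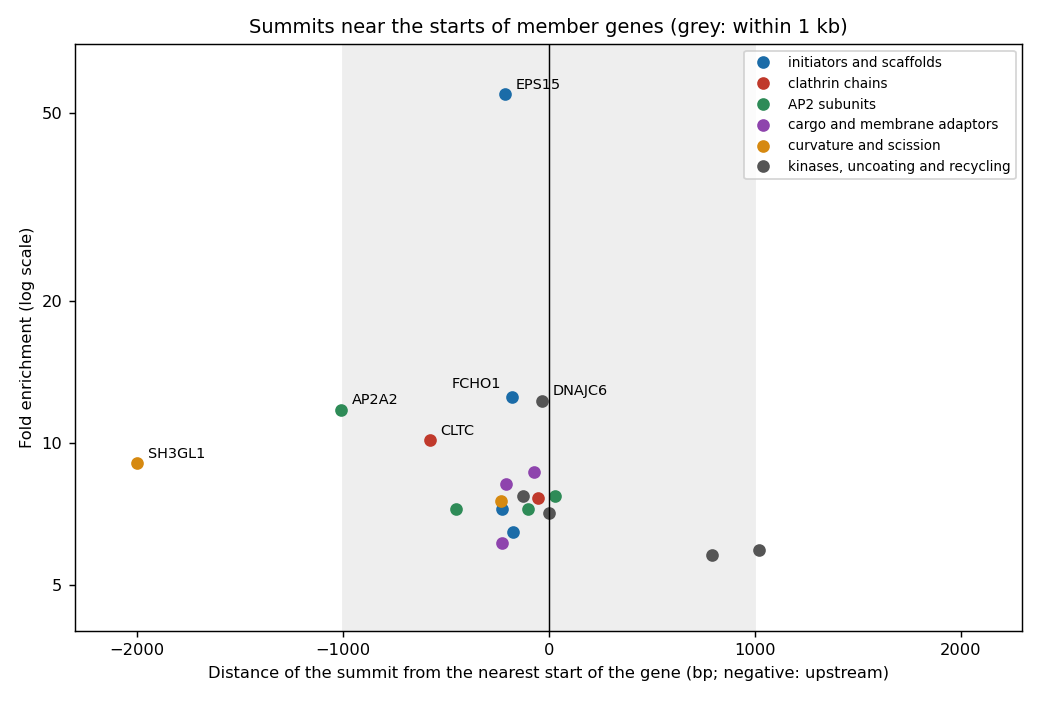
Distance of each member summit from the nearest start in bp (negative is upstream) against fold enrichment, coloured by role, for summits up to about 2 kb away; the grey band marks 1 kb on either side. Within the band 14 summits fall upstream and 3 downstream, with EPS15 highest at 54.8 and 213 bp upstream.

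Member promoters with a summit held E-boxes no more often than those without. CANNTG, on either strand, was present in 33 of 49 member windows (67.3%), beside 65.1% of all 22199 protein-coding promoters. The 49 windows belong to 35 members, and windows of the same gene can overlap, as in AAK1, CLTB and EPS15L1, so a match can be counted more than once. Of the 15 member windows that held a summit, 8 had it (53.3%), against 57% of all promoters with a summit, and of the 34 without, 25 had it (73.5%), against 65.9%. CAGATG, read on both strands and a subset of CANNTG, was in 7 of 49 windows (14.3%), beside 12.2% of all promoters. With a summit inside, 1 of 15 member windows (6.67%), that of DNAJC6, and 8.57% of all promoters had CAGATG. The DNAJC6 match lay outside its peak. Without one, it was present in 6 of 34 (17.6%) and 12.5%. CAGCTG was in 15 of 49 member windows (30.6%) and 18% of all promoters. With a summit inside, it was in 3 of 15 member windows (20%), beside 19.3% of all promoters. Both AAK1 windows, which cover nearly the same stretch, are among these 3. Without a summit, it was in 12 of 34 (35.3%), beside 17.9%. CAGATG or CAGCTG was in 20 of 49 member windows (40.8%), beside 27.6% of all promoters. It was in 4 of the 15 with a summit (26.7%), beside 25.9% of all promoters with one. CACGTG was in 2 of 49 (4.08%), beside 8.34%. By gene, 7 of the 14 members with a summit in a window had a CANNTG there, and in 6 of them it lay under the peak. The median GC content was 70.7% in member windows with a summit and 69.5% in those without, so it barely differed between them, beside 68% and 61.7% over all promoters. A match is a string of letters, and no match says only that the letters are not in these 300 bases.

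The share of members with a peak was set beside genes of like length, since a longer gene offers more room for a peak. Among the 200 protein-coding genes nearest in length to each member, a mean of 26.9% had a peak, which would be 9.67 members, and the values for single members ran from 15% to 47.5%. By size, 4 of 12 members under 50 kb had a peak (33.3%), as did 17.7% of other coding genes. From 50 to 150 kb the share was 6 of 13 members (46.2%) against 25.9%, and above 150 kb 7 of 11 (63.6%) against 36.1%. The members' share was above that of other genes in each class, and it rose with length in both. Members with a peak had a median length of 113.8 kb, and those without 59.1 kb. Leaving out EPS15, 16 of 35 members (45.7%) had a peak, beside 26.6% of like-length genes. With 1 library, no test across samples was possible, and the list was drawn with the peaks known.

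Of 9 pairs of close relatives among the members, both genes had a peak in AP2A1 and AP2A2 and in DNM2 and DNM3, neither in CLTA and CLTB, and 1 of the genes in the other 6. These pairs were chosen after the peaks were seen. The genes with a peak in those 6 pairs were EPS15, FCHO1, ITSN1, REPS1, HIP1 and EHD1. The gene with a peak was the longer for EPS15 (165 against 116.8 kb), ITSN1 (257.4 against 158.5 kb) and HIP1 (205.6 against 28.21 kb). It was the shorter for FCHO1 (40.82 against 134.5 kb), REPS1 (84.76 against 250 kb) and EHD1 (28.05 against 35.3 kb). The part of length in these pairs was not tested.

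For the 19 members without a peak, the nearest peak was a median of 93.7 kb away. AP2B1 was closest to the limit at 5122 bp, then AP2S1 at 9.40 kb, EPN1 at 27.2 kb and CLTB at 30.7 kb. At the other end, the nearest peak was 1104 kb from DAB2, a cargo adaptor of lipoprotein receptors, and 1310 kb from SH3GL2. A gene without a peak in a single library of unknown depth is one where binding was not called, not one shown to lack it.

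The other gene lists, drawn up with these peaks already reported, had peaks at a smaller share of genes than the members. These shares are to be read beside the 21.4% of all protein-coding genes. Of 41 further clathrin endocytosis genes, 10 had a peak (24.4%), led by NUMBL, a relative of NUMB, at 16.9, PIP5K1C, a phosphoinositide kinase of synapses, at 14.2, and SNX18 and EHD2 at 9.64. Of 47 adaptor and coat genes of other vesicles, 16 had a peak (34%), led by GGA1 at 15.9, AP3M2 at 14.9 and AP3D1 at 11.6, which serve the Golgi and endosomes. Of 17 genes of clathrin-independent uptake, 4 had a peak (23.5%), led by SH3GLB1 at 10.3, ARF6 at 7.23 and RHOA at 6.75. The median lengths of these lists were 70.3, 32.3 and 20.8 kb, against 92.9 kb for the members and 24.1 kb for all protein-coding genes, so the shares are not set against equal lengths. In the length bins that hold the medians of these lists, 25.3%, 21.6% and 19.5% of non-member coding genes had a peak. In the bin that holds the members' median it was 25.1%. Differences between the lists were not tested.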

How the data were processed

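The source was the narrowPeak table that the authors deposited for 1 NeuroD1 ChIP library of IMR-32 cells. The processing notes in the labels name BWA 0.7.17, MACS2 2.2.7 and hg38, while peak names inside the list carry a MACS3 prefix. Which control and which q threshold were set is not given in the sources used here. In the deposited list, the fold enrichment is a ratio with 1 added to pileup and background, and the −log10 columns hold the Poisson p-value and the q-value. The score deposited beside them is a whole-number form of the −log10 q and was not used. The last deposited column, a fold per base of width, was not used.

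Reads at each summit were solved from fold enrichment and −log10 p with a weight of 0.98 per read, itself taken from the steps of the deposited values. A whole number of reads, to within 0.01, was found for 6182 of 6183 peaks, with more than 1 solution for 6. The lowest background, 1.035, held at 33.8% of peaks. The solver and the overlap step were tested on simulated data.

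Genes and promoters came from RefSeq of GRCh38.p14, which shares its coordinates with hg38. No genome or exon annotation was used, so exon, intron and UTR were not assigned. Starts were the promoter table's starts and the 5′ end of the gene body. The members and all lists were chosen with earlier results of these data known. Every member with a peak was named, with full values for the 8 highest and for those with 2 or more peaks, and the 3 highest genes (ties included) of each other list. Scripts ran in Python 3.11.15 with scipy 1.17.1, numpy 2.4.6 and pandas 2.3.3, and plots were drawn in matplotlib 3.10.9. Alternatives were a −log10 q or a fold enrichment of at least 5, distances of 0, 1 and 10 kb, the summit or at least 0.5 of the peak, other length matches, other start distances and other E-box forms.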

Additional observations from a re-analysis of the deposited data

How the results depend on the processing

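The number of members with a peak was 17 at a −log10 q of at least 5 and at a fold enrichment of at least 5, beside 17.2% and 19.7% of all protein-coding genes. It was 13 with the gene body alone (DNM2, HIP1, ITSN1 and SH3GL1 dropped out), 16 at 1 kb, where SH3GL1 dropped out, and 19 at 10 kb, where AP2B1 and AP2S1 came in. These are 36.1%, 44.4% and 52.8% of members, beside 16%, 20.1% and 25.1% of all protein-coding genes. The mean share among genes of like length, 26.9% as reported, was 21.3% at the −log10 q limit, 24.5% at the fold limit, 21.7% with the gene body alone and 29.7% at 10 kb. By −log10 q the EPS15 peak ranked 2. The number of member windows with CAGATG, 7, became 20 with CAGCTG added and 33 with any CANNTG. Members with a summit near a start numbered 14 at 0.5 kb and 15 at 3 kb, beside 14.9% and 16.9% of protein-coding genes with a start. They numbered 14 at the −log10 q limit and 14 at the fold limit, beside 12.3% and 14.2%. The median fold enrichment of member peaks was 7.39 at either limit and 7.71 with only the highest peak of each member. Leaving out EPS15, an alternative chosen after seeing the data, gave 16 members. No paired analysis was possible because there was 1 ChIP library, and no replicate could be left out. The depth of that library is unknown.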

Other observations

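Letters other than the E-box were counted in the promoter windows after the data were seen. GGGCGG, the core of a GC box, on either strand, was in 14 of 15 member windows with a summit (93.3%), and in 24 of the 34 without (70.6%). Over all protein-coding promoters the shares were 82% with a summit, 53.7% without and 56.3% in all. By gene, 13 of 14 members had it, and DNAJC6 did not. The EPS15 window held 9 copies, and those of HIP1 and AP2A1 held 7 each. CCAAT was in 7 of 15 member windows with a summit (46.7%), and 11 of 34 without (32.4%), beside 52.4% of all promoters with a summit and 32.9% of those without. CCGGAA was in 5 of 15 (33.3%) and 9 of 34 (26.5%), beside 28.1% and 20.5%. The NRF1 motif and TGACGTCA, the cAMP response element, were also searched. They were in none of the 15 and in 1 and 4 of the 34 (2.94% and 11.8%). Over all promoters the shares were 1.52% and 2.79% with a summit, and 1.5% and 2.2% without. The median GC content was 70.7% in member windows with a summit and 69.5% in those without, whereas over all promoters it was 68% and 61.7%. The part of GC content in the counts was not tested.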
